A study of Mus musculus with 16 samples.

Results

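The genes described here are 10 parts of the tumour necrosis factor (TNF) system of macrophages: the ligands Tnf and Tnfsf9, the receptors Tnfrsf1a, Tnfrsf1b, Tnfrsf11a and Tnfrsf11b, the adaptors Traf1 and Traf2, and the ubiquitin ligases Birc2 and Birc3. They were taken by symbol, through the Ensembl identifier, from the 55359 genes of each count file, and all 10 were found. They were picked with the results of the same libraries known, so their levels and fold changes are a description and carry no p-value. The libraries came from MPI-2 cells, a wild-type mouse line of alveolar-like macrophages grown with GM-CSF and used over a wide span of passages. Cultures met Mycobacterium abscessus, an environmental mycobacterium able to survive in macrophages (exposed), or no bacteria (uninfected), and polyadenylated RNA was sequenced at day 1 and at day 5. There were thus 4 groups, uninfected and exposed at each day, with 4 replicates each that the labels call biological. All 16 libraries are of a single line, so the spread between them is a spread between cultures and not between animals. The labels give neither the bacterial strain nor its dose, nor how many cells took it up.

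TNF is made as a membrane protein and released by a protease, and macrophages are among its main sources. It binds a receptor with a death domain, encoded by Tnfrsf1a and present on most cells, and a receptor without one, encoded by Tnfrsf1b and found mainly on immune and endothelial cells. Both gather TRAF2 and the ubiquitin ligases cIAP1 (Birc2) and cIAP2 (Birc3), which favour NF-kB signalling and survival over caspase-driven death, and NF-kB in turn is known to drive transcription of Tnf, Traf1 and Birc3. Tnfrsf11a encodes RANK, the receptor through which RANK ligand makes osteoclasts from cells of the macrophage lineage. Tnfrsf11b encodes osteoprotegerin, a secreted decoy that captures RANK ligand.

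The stretch of DNA just before the transcription start is shown for the ligand Tnf, its 2 receptors and 2 partners with widely different exposed day 5 levels, because these are the genes whose levels moved apart. The windows are the 250 bases before the start in RefSeq on GRCm38.p6, 5′ to 3′ along the gene; reads had been counted on GRCm39, so the positions do not apply to the count files. Capitals mark 2 patterns searched on both strands: GGG followed by any 5 bases and CC, a loose form of the NF-kB site, and TATAAA, the TATA box.

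Tnf, chr17:35202008-35202257, minus strand: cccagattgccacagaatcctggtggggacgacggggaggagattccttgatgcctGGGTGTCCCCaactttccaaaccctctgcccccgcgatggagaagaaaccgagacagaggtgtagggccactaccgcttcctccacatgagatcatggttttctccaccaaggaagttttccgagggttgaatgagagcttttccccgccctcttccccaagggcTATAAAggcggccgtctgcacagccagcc
Tnfrsf1b, chr4:145246871-145247120, minus strand: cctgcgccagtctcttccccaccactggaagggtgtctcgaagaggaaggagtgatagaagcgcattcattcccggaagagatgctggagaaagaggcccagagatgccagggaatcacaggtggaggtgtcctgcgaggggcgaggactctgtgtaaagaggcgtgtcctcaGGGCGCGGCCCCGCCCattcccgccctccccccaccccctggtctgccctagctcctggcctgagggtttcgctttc
Tnfrsf1a, chr6:125349473-125349722, plus strand: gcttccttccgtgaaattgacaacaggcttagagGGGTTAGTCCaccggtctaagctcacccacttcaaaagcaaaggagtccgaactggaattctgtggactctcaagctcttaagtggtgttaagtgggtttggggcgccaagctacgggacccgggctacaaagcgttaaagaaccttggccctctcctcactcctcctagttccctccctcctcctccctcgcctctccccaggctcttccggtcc
Birc3, chr9:7873171-7873420, minus strand: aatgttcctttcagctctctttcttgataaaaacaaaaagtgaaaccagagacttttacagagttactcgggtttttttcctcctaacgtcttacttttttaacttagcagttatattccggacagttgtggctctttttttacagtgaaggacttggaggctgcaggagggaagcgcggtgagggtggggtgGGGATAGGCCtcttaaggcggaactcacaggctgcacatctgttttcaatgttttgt
Traf1, chr2:34961773-34962022, minus strand: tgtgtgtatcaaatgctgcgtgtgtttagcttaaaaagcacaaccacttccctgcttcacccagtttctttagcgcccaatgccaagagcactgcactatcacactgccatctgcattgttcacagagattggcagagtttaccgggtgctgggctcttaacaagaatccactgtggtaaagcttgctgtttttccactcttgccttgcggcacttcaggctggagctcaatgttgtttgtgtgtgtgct

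RefSeq windows were found for 8 of the 10 genes. The Tnf window held GGGTGTCCCC at 194 to 185 bases before the start, which matches on both strands, and a TATA box at 29 to 24 bases. Tnfrsf1b had overlapping matches on the 2 strands between 77 and 62 bases before the start, Birc3 had 1 match at 57 to 48 bases and Tnfrsf1a had 1 at 216 to 207 bases. The printed Traf1 window held none of them. The loose NF-kB pattern was present in 6 of the 8 genes, and also in 45.8% of the 32851 windows of all genes. TATAAA was in 1 of the 8 genes and in 12.4% of all windows, and TGANTCA, a form of the AP-1 site, was in 0 of the 8 and in 6.75% of all windows. These are matches of letters and no measure of binding. The loose pattern was matched in genes higher in exposed day 5 cells, such as Tnf and Birc3, and in the lower Tnfrsf1a, and Traf1, with a much wider change, had no match in its window. Sites outside the windows were not searched, and a link between matches and levels was not tested.

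Total counts per library lay between 46154875 and 81995629, and 17190 genes passed a filter on low counts and were tested. Levels are in CPM, the count of a gene relative to the TMM-scaled total of its library. Folds are edgeR log2 fold changes with approximate standard errors, and a gene is called at an adjusted p under 0.05 over all tested genes. The standard error is the size of the fold change over the square root of the F statistic of its test. Markers of macrophages were all present (17 of 17 at 1 CPM or more), while 6 of 7 T cell, 5 of 5 B cell, 3 of 4 NK cell, 3 of 4 dendritic cell, 4 of 5 fibroblast and 4 of 5 epithelial markers stayed below 1 CPM in all libraries. The exceptions were Lck (T cell), Eomes (NK cell), Zbtb46 (dendritic cell), Pdgfra (fibroblast) and Cdh1 (epithelial), and the summed levels of these 5 lists differed between exposed and uninfected day 5 libraries. With only that 1 gene per list above 1 CPM, the exposed day 5 sums for T cells, fibroblasts and epithelium are mostly Lck, Pdgfra and Cdh1. The T cell sum was 1.75 to 2.17 CPM in uninfected and 8.91 to 15.4 CPM in exposed day 5 libraries, and the dendritic cell sum 3.75 to 4.15 and 6.8 to 8.3 CPM. The NK cell sum was 1.19 to 1.7 CPM uninfected and 0.382 to 0.604 CPM exposed, the fibroblast sum 20.4 to 22.4 and 9.75 to 13.2 CPM, and the epithelial sum 69.7 to 73.8 and 14 to 24.4 CPM. At day 1 the T cell sum (1.77 to 2.46 CPM uninfected, 3.5 to 4.91 CPM exposed) and the epithelial sum (59.7 to 64.9 and 32.2 to 39.7 CPM) differed likewise. Cd3g, Cd8a, Nkg7 and Col1a2 had no count in these groups, nor had Epcam in the exposed ones. Of 7 neutrophil markers, 5 (S100a8, S100a9, Camp, Ngp and Mpo) passed 1 CPM in some library, and the summed level of all 7 was 300 to 391 CPM in uninfected and 762 to 1050 CPM in exposed day 1 libraries, and 447 to 614 CPM and 414 to 889 CPM at day 5. The part of these markers in the results was not tested. Exposed day 5 libraries differed among themselves more than those of other groups, with replicates 2 and 4 apart from replicates 1 and 3 in many of the genes below. Replicates 2 and 3 share one series of library codes, which is another grouping. In exposed day 5 libraries Birc2 was highest and Tnfrsf11a lowest in those replicates, and the part of the codes was not tested. Mitochondrial transcripts took 0.78% to 1.24% of counts in exposed day 5 libraries and 1.58% to 1.84% in uninfected day 5 libraries, and the part of this in the results was not tested. In bulk samples, fewer cells of a kind and less RNA per cell cannot be told apart.

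The 10 genes together took 0.0504% to 0.0525% of counts in uninfected day 1 libraries and 0.0683% to 0.075% in exposed day 1 libraries. They took 0.0487% to 0.0555% in uninfected day 5 libraries and 0.123% to 0.23% in exposed day 5 libraries. Of the 10, 5 were called higher and 0 lower in exposed cells at day 1, where 13.4% and 10.5% of all tested genes were called in these directions. At day 5, 7 were called higher and 1 lower, against 28.6% and 28.4% of all genes. The exposure effect became more positive between days for 6 and more negative for 2, against 16.4% and 19.5% of all genes. Exposed and uninfected libraries did not overlap, in the higher and the lower direction, for 7 and 1 of the 10 at day 1 (19.6% and 19.7% of all genes) and for 7 and 1 at day 5 (22.3% and 24.2%). Nothing is read from these counts, since the genes were chosen on this outcome.

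**Figure D1:**
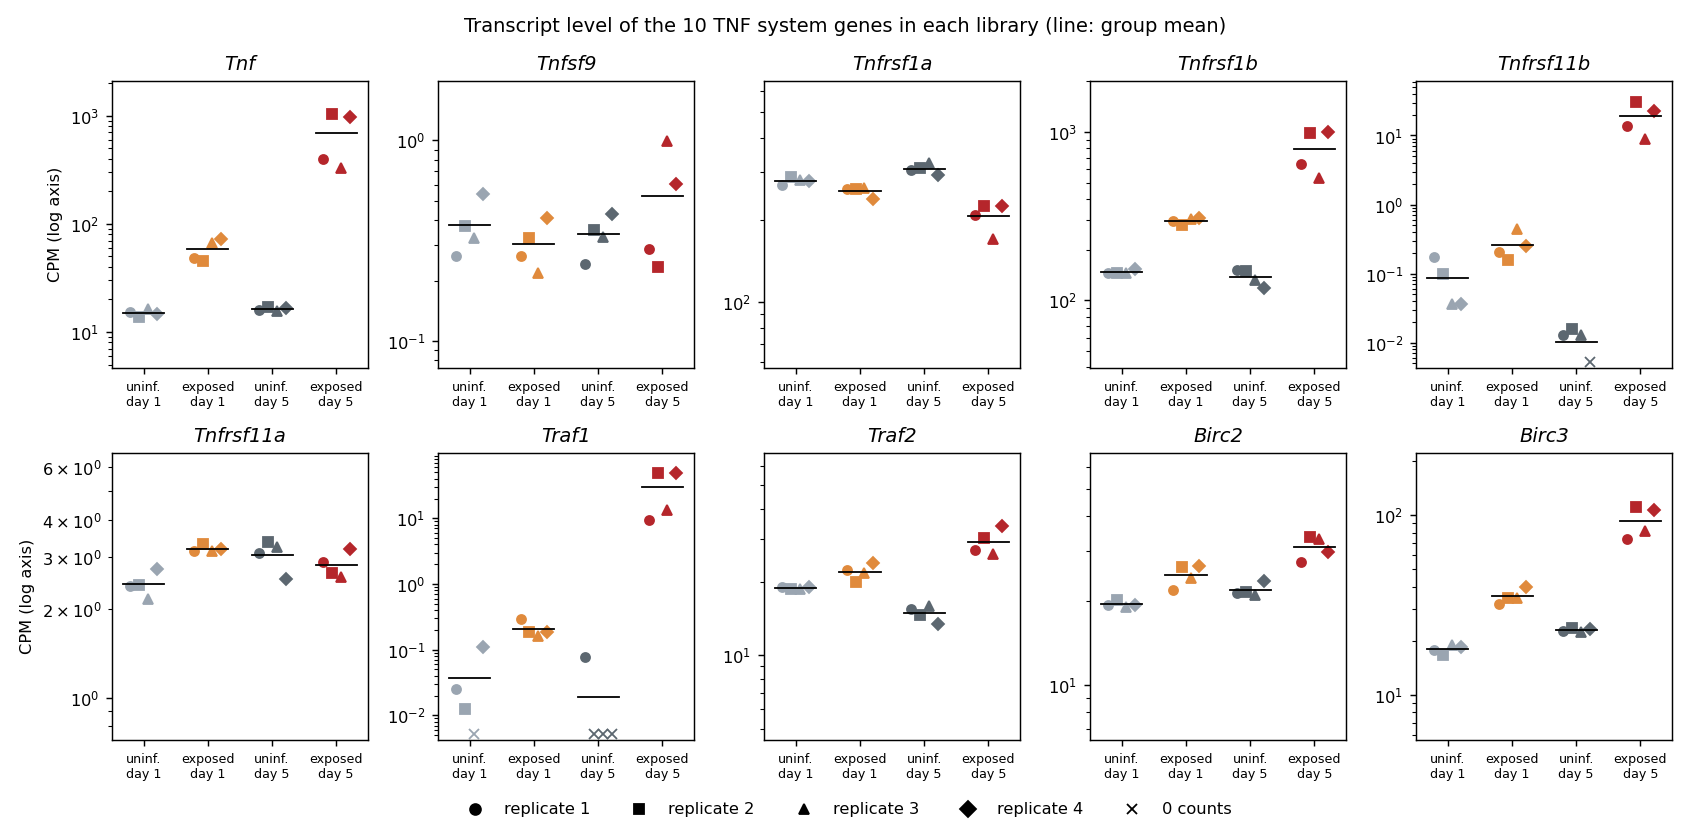
Level of each of the 10 genes in CPM on a log axis, 1 symbol per library and 1 panel per gene, with the group mean as a line and libraries at 0 counts as crosses at the lower edge. Tnf, Tnfrsf1b, Tnfrsf11b, Traf1 and Birc3 stood highest in the 4 exposed day 5 libraries (red), while Tnfrsf1a stood lowest there.

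Tnf was higher in exposed than in uninfected cells already at day 1, and by much more at day 5. Tnf (ENSMUSG00000024401.15) was at 15.4, 13.8, 16.2 and 14.6 CPM in uninfected day 1 replicates 1 to 4 and at 48.6, 45.0, 66.0 and 72.3 CPM in the exposed ones. At day 5 it was at 15.8, 16.9, 15.7 and 16.7 CPM in uninfected cells and at 400.0, 1045, 328 and 981 CPM in exposed cells. Every exposed library was above every uninfected library at both days and exposed day 5 replicates 2 and 4 were well above replicates 1 and 3. The log2 fold change was 1.95 ± 0.30 at day 1 and 5.40 ± 0.34 at day 5, so the effect grew by 3.45 ± 0.42. Leaving out any single exposed day 5 library gave values from 5.13 to 5.63 at day 5.

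Tnfsf9 encodes 4-1BB ligand, a membrane protein of antigen-presenting cells that costimulates T cells, and it stayed scarce. Tnfsf9 (ENSMUSG00000035678.9) was at 0.264, 0.373, 0.326 and 0.543 CPM in uninfected day 1 libraries and at 0.266, 0.326, 0.219 and 0.411 CPM in exposed ones. At day 5 the values were 0.241, 0.357, 0.33 and 0.429 CPM uninfected and 0.288, 0.233, 0.988 and 0.607 CPM exposed. The groups overlapped at both days, and the highest value came from exposed day 5 replicate 3, a library in which Tnf was lowest of its group. Log2 fold changes of -0.30 ± 0.41 at day 1 and 0.62 ± 0.40 at day 5 were not called, and the latter was 0.14 without that library.

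The other ligands of the superfamily, taken from a list of 18 genes that includes these 2, were mostly scarce too, with 9 of the other 16 passing the filter. Of the 9, 3 were higher and 0 lower at day 1, and 6 were higher and 2 lower at day 5, with a median log2 fold change of 0.28 and 0.79 beside 0.03 and 0.02 over all genes. Tnfsf15, which encodes the death-receptor ligand TL1A, rose from 0.707 ± 0.243 to 5.29 ± 0.633 CPM at day 1 (SD, n = 4 each, log2 fold change 2.90 ± 0.32, adjusted p = 6.44e-06). At day 5 it rose from 0.435 ± 0.0860 to 33.3 ± 15.5 CPM (6.25 ± 0.35, adjusted p = 2.09e-10). Tnfsf13b, the B cell survival factor BAFF, rose by 0.85 ± 0.11 on the log2 scale at day 5 (adjusted p = 1.93e-06), and its relative Tnfsf13, or APRIL, by 0.79 ± 0.11 (adjusted p = 6.31e-06). Tnfsf14, the T cell costimulator LIGHT, went the other way and fell from 3.07 ± 0.161 to 0.567 ± 0.295 CPM at day 5 (-2.46 ± 0.28, adjusted p = 3.71e-07). Part of that distance lies in the controls, since uninfected cells held more Tnfsf14 at day 5 than at day 1 (0.92 ± 0.25, adjusted p = 0.0153). At day 1 neither Tnfsf14 (-0.30 ± 0.26, adjusted p = 0.426) nor Tnfsf13b (0.28 ± 0.11, adjusted p = 0.0751) passed.

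The 2 TNF receptors moved in opposite directions. Tnfrsf1a (ENSMUSG00000030341.18), the receptor with the death domain, was at 268, 289, 281 and 279 CPM in uninfected day 1 libraries and at 261, 261, 262 and 239 CPM in exposed ones. Day 5 levels were 306, 311, 325 and 293 CPM uninfected and 209, 226, 171 and 225 CPM exposed. All exposed libraries lay below all uninfected ones at each day, narrowly at day 1, and exposed day 5 replicate 3 was the lowest of all. This gave a log2 fold change of -0.13 ± 0.09 at day 1, not called, and -0.57 ± 0.09 at day 5, called lower, with a change of -0.44 ± 0.12 between days.

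Tnfrsf1b (ENSMUSG00000028599.11), the receptor without a death domain, was at 146, 145, 145 and 153 CPM in uninfected day 1 libraries and at 296, 281, 305 and 307 CPM in exposed ones. By day 5 the levels were 152, 150.1, 132 and 118 CPM uninfected and 647, 991, 534 and 1006 CPM exposed. The groups were far apart at both days, and replicates 2 and 4 of the exposed day 5 group were again the higher ones. On the log2 scale the difference was 1.01 ± 0.15 at day 1 and 2.53 ± 0.16 at day 5, an increase of 1.51 ± 0.21, and leaving out an exposed day 5 library gave 2.39 to 2.68 at day 5.

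Per kilobase of exon, the ratio of Tnfrsf1b to Tnfrsf1a CPM turned over with exposure. It lay between 0.341 and 0.372 in uninfected day 1 libraries and between 0.274 and 0.336 in uninfected day 5 libraries, so the death-domain receptor was the more abundant transcript. In exposed cells the ratio was 0.73 to 0.872 at day 1 and 2.1 to 3.03 at day 5, so that Tnfrsf1b was the more abundant of the pair in each of the 4 exposed day 5 libraries. The ratio uses 2 genes of the same library and does not depend on how libraries were scaled.

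**Figure D2:**
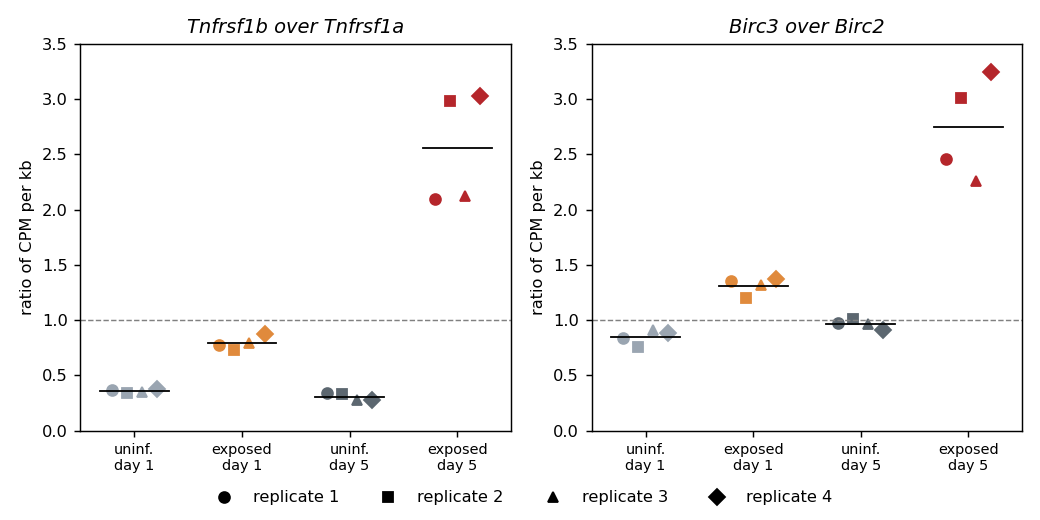
Ratio of Tnfrsf1b to Tnfrsf1a (left) and of Birc3 to Birc2 (right), each as CPM per kb of exon, 1 symbol per library, with the group mean as a line and equal levels as a dashed line. Exposed day 5 libraries (red) lie between 2.1 and 3.03 on the left and between 2.26 and 3.25 on the right, above the other 3 groups.

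Osteoprotegerin, the decoy receptor, was close to absent except in exposed day 5 cells. Tnfrsf11b (ENSMUSG00000063727.4) was at 0.176, 0.0995, 0.0362 and 0.0362 CPM in uninfected day 1 libraries and at 0.206, 0.157, 0.438 and 0.247 CPM in exposed ones. At day 5 it was at 0.0127, 0.0155, 0.0127 and 0 CPM uninfected, where the library at 0 counts allows up to 0.046 CPM, and at 13.6, 30.7, 8.85 and 23.0 CPM exposed. The exposed day 5 values are thus far above all others, and again higher in replicates 2 and 4, while the day 1 groups overlapped. Summed over libraries, 4922 counts stood against 3 at day 5, a ratio of 1850 with a 95% interval of 632 to 8970 for counting error only. The fitted log2 fold change was 10.60 ± 0.62 at day 5 and 1.43 ± 0.62 at day 1, not called. The day 1 difference was called with DESeq2 (1.47), on the compared libraries alone (1.47) and without exposed day 5 replicate 3 (1.43). Leaving out each library gave 1.05 to 2.02 at day 1, the highest without uninfected day 1 replicate 1.

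RANK, the signalling receptor of that pathway, changed little. Tnfrsf11a (ENSMUSG00000026321.9) was at 2.39, 2.41, 2.15 and 2.73 CPM in uninfected day 1 libraries and at 3.12, 3.32, 3.14 and 3.19 CPM in exposed ones. Day 5 levels were 3.07, 3.35, 3.23 and 2.53 CPM uninfected and 2.88, 2.64, 2.55 and 3.17 CPM exposed. Exposed libraries were all higher at day 1, and the groups overlapped at day 5. The log2 fold change was 0.40 ± 0.13 at day 1, called higher, and -0.12 ± 0.13 at day 5, with a change of -0.51 ± 0.19 between days, called lower. The day 1 call was lost without any 1 of 7 libraries (each of the 4 exposed day 1 libraries and uninfected day 1 replicates 1, 2 and 3), with RLE size factors (0.37), without a filter (0.37) and with the replicate number as a block (0.40). The call of the change was lost without any 1 of 11 libraries (replicates 1, 2 and 3 of exposed day 1, uninfected day 1 and uninfected day 5, and exposed day 5 replicates 2 and 3), with values from -0.53 to -0.47. Transcripts of RANK ligand itself, Tnfsf11, had 0 counts in all 16 libraries, which allows between 0.0363 and 0.0617 CPM per library.

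Among 24 other receptors of the superfamily 16 passed the filter. At day 1, 2 were higher and 1 lower (median log2 fold change 0.07), and at day 5, 9 were higher and 3 lower (median 0.61). Fas, the death receptor for Fas ligand, rose from 13.1 ± 0.695 to 42.4 ± 3.04 CPM at day 1 (1.69 ± 0.13, adjusted p = 1.47e-08) and from 15.8 ± 0.896 to 73.1 ± 18.5 CPM at day 5 (2.21 ± 0.13, adjusted p = 4.54e-11). Tnfrsf18, the costimulatory receptor GITR, fell from 12.6 ± 2.39 to 2.24 ± 0.647 CPM at day 5 (-2.49 ± 0.18, adjusted p = 1.01e-09). It had not passed at day 1 (-0.39 ± 0.18, adjusted p = 0.121). Part of the Tnfrsf18 distance at day 5 lies in the controls, since uninfected cells were higher at day 5 than at day 1 (1.69 ± 0.175, adjusted p = 2.11e-06). Relt, a receptor of lymphoid tissue, fell at day 1 by 0.35 ± 0.06 on the log2 scale (adjusted p = 0.00061) and at day 5 by 1.01 ± 0.06 (adjusted p = 1.09e-10). Tnfrsf8, known as CD30, rose at day 1 by 0.74 ± 0.11 (adjusted p = 6.74e-05). Its rise of 0.29 ± 0.11 at day 5 (adjusted p = 0.0286) was lost without any 1 of 4 libraries (exposed day 5 replicates 2 and 4 and uninfected day 5 replicates 1 and 4).

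TRAF1, an adaptor that joins TRAF2 and the cIAPs at receptors such as the product of Tnfrsf1b, had almost no transcripts outside the exposed day 5 group. Traf1 (ENSMUSG00000026875.15) was at 0.0251, 0.0124, 0 and 0.109 CPM in uninfected day 1 libraries and at 0.291, 0.183, 0.16 and 0.185 CPM in exposed ones. At day 5, uninfected replicate 1 was at 0.0762 CPM and the other 3 at 0, which allows up to 0.0381 to 0.0466 CPM in each, while the exposed libraries were at 9.46, 48.2, 13.4 and 49.2 CPM. Exposed libraries were above uninfected ones at both days, with a very wide gap at day 5, and replicates 2 and 4 were again above replicates 1 and 3. The counts were 7579 against 6 at day 5, a ratio of 1420 (95% interval 654 to 3880, counting error only), and 58 against 9 at day 1, a ratio of 6.31 (3.11 to 14.5).

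The fitted log2 fold change of Traf1 was 10.37 ± 0.81 at day 5, called, and 2.58 ± 1.20 at day 1, not called. The day 1 value was 3.74 without uninfected day 1 replicate 4 and 2.25 to 2.68 without any other library, and it was called on the compared libraries alone (2.56). Its change between days, 7.80 ± 2.52, was called, and the call was lost without uninfected day 1 replicate 1 (7.93) or replicate 4 (6.63) and with no filter on low counts (7.83). Without uninfected day 5 replicate 1, which held all 6 of the control counts, the day 5 fit gave 13.98 and the change between days 11.41, values set by the prior count and no bounds. Tnfrsf11b and Traf1 passed the filter of 0.141 CPM mainly or wholly through exposed libraries: Tnfrsf11b reached it in 1 uninfected library, and Traf1 in 0. They had to differ in order to be tested. The other 8 genes passed in every library.

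Traf2 encodes the adaptor that brings the cIAPs to both TNF receptors, and it moved by much less. Traf2 (ENSMUSG00000026942.14) was at 19.2, 18.8, 18.7 and 19.1 CPM in uninfected day 1 libraries and at 22.5, 20.0, 21.7 and 23.9 CPM in exposed ones. By day 5 the levels were 15.5, 14.7, 15.9 and 13.4 CPM uninfected and 27.2, 30.2, 26.1 and 33.9 CPM exposed. The groups did not overlap at either day. This gave a log2 fold change of 0.22 ± 0.09 at day 1, not called, and 0.98 ± 0.09 at day 5. Part of the distance at day 5 lies in the controls, since uninfected cells were lower at day 5 than at day 1 (-0.35 ± 0.09). Per kilobase, Traf1 stood at 0.201, 0.922, 0.297 and 0.839 of the Traf2 level in exposed day 5 replicates 1 to 4. In the other groups it was at or below 0.00748 of it.

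Of 19 other TRAF proteins, adaptors and kinases, all tested, 6 were higher and 2 lower at day 1 and 6 were higher and 5 lower at day 5, with medians of -0.02 and 0.02, close to those of all genes. Traf5, an adaptor related to TRAF2, rose from 4.98 ± 0.280 to 29.5 ± 3.02 CPM at day 5 (2.57 ± 0.13, adjusted p = 6.14e-12) and by 1.24 ± 0.13 on the log2 scale at day 1 (adjusted p = 9.36e-07). Traf3, which restrains the non-canonical NF-kB kinase, rose by 0.50 ± 0.09 at day 1 (adjusted p = 0.000747) and by 1.23 ± 0.09 at day 5 (adjusted p = 1.71e-09). Uninfected cells held less Traf3 at day 5 than at day 1 (-0.39 ± 0.09, adjusted p = 0.00559). Ikbke, an IKK-related kinase of the interferon pathway, rose from 67.1 ± 2.65 to 190.8 ± 37.8 CPM at day 1 (1.51 ± 0.13, adjusted p = 1.01e-07) and from 56.4 ± 4.16 to 262.7 ± 50.8 CPM at day 5 (2.22 ± 0.13, adjusted p = 7.19e-11). Tab3, a ubiquitin-binding partner of the kinase TAK1, fell at both days, by 0.39 ± 0.06 (adjusted p = 0.000197) and by 0.46 ± 0.06 (adjusted p = 4.43e-06).

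The 2 cIAP ligases, neighbours in the genome with related sequences, responded to different degrees. Birc2 (ENSMUSG00000057367.13) was at 19.3, 20.2, 19.1 and 19.3 CPM in uninfected day 1 libraries and at 21.8, 26.3, 24.2 and 26.7 CPM in exposed ones. At day 5 it was at 21.3, 21.6, 21.0 and 23.5 CPM uninfected and at 27.4, 33.7, 33.2 and 29.9 CPM exposed. Exposed libraries were higher at both days, with no overlap, by a small step. On the log2 scale the difference was 0.35 ± 0.08 at day 1 and 0.51 ± 0.08 at day 5, and the change between days, 0.16 ± 0.12, was not called.

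Birc3 (ENSMUSG00000032000.18) was at 17.7, 16.8, 19.1 and 18.5 CPM in uninfected day 1 libraries and at 32.2, 34.4, 34.8 and 40.0 CPM in exposed ones. Day 5 levels were 22.8, 23.7, 22.3 and 23.3 CPM uninfected and 73.7, 111, 82.1 and 106 CPM exposed. The groups did not overlap, and the exposed day 5 libraries again had replicates 2 and 4 on top. The log2 fold change was 0.97 ± 0.11 at day 1 and 2.02 ± 0.11 at day 5, an increase of 1.04 ± 0.15. The ratio of Birc3 to Birc2 per kilobase was 0.759 to 0.914 in uninfected day 1 libraries, 1.2 to 1.37 in exposed day 1, 0.908 to 1.01 in uninfected day 5 and 2.26 to 3.25 in exposed day 5 libraries. The ratio was thus higher in exposed than in uninfected libraries at day 1, and by more at day 5. Which gene of the pair leads in uninfected day 5 cells depends on the exon lengths used. How reads common to both genes had been assigned is not stated in the labels.

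**Figure D3:**
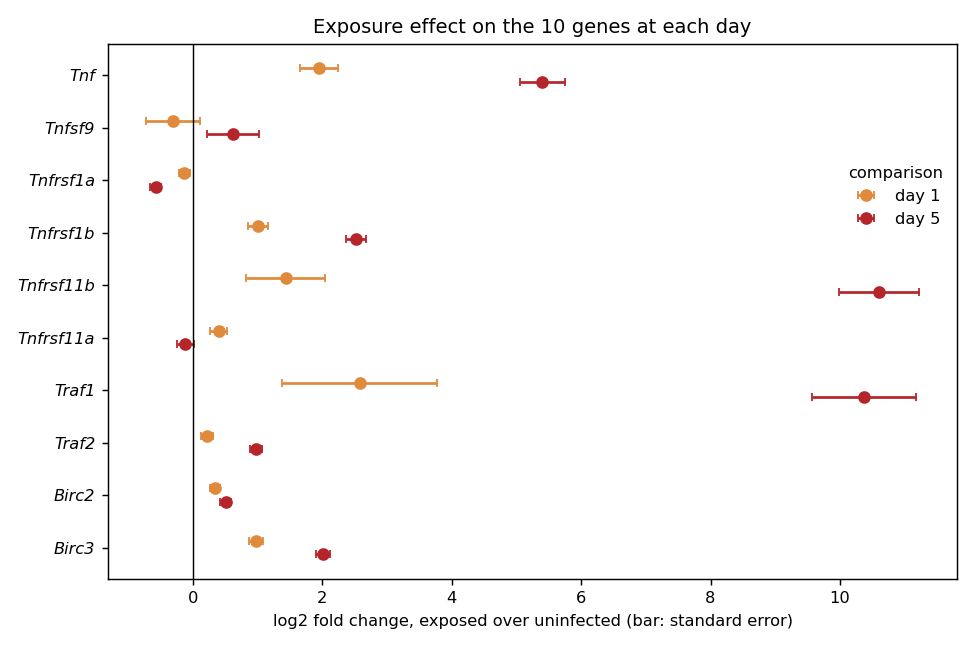
Log2 fold change of exposed over uninfected cells for the 10 genes at day 1 (orange) and day 5 (red), with the standard error as a bar. Values at day 5 run from -0.57 for Tnfrsf1a to 10.60 for Tnfrsf11b, and those at day 1 from -0.30 to 2.58.

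Of the other 13 ubiquitin ligases, deubiquitinases and their partners at the receptor complex, all tested, 5 were higher and 1 lower at day 1 (median log2 fold change 0.17) and 7 were higher and 1 lower at day 5 (median 0.32). Tnip3, which binds the deubiquitinase A20, rose from 1.03 ± 0.220 to 16.3 ± 2.12 CPM at day 1 (3.98 ± 0.18, adjusted p = 2.01e-11). At day 5 Tnip3 rose from 0.599 ± 0.0807 to 110.6 ± 25.9 CPM (7.53 ± 0.20, adjusted p = 5.85e-15). Tnfaip3, which encodes A20 and limits NF-kB signalling, rose from 23.1 ± 3.35 to 83.0 ± 14.8 CPM at day 1 (1.84 ± 0.15, adjusted p = 8.55e-08) and from 25.9 ± 1.65 to 375.8 ± 87.1 CPM at day 5 (3.86 ± 0.17, adjusted p = 1.53e-12). Tnip1, another A20 partner, rose by 0.71 ± 0.12 at day 1 (adjusted p = 0.000367) and by 2.85 ± 0.13 at day 5 (adjusted p = 1.78e-12). Uninfected cells held less Tnip3 (-0.78 ± 0.22, adjusted p = 0.0171) and Tnip1 (-0.43 ± 0.12, adjusted p = 0.0191) at day 5 than at day 1. Rnf31, the catalytic subunit of the linear ubiquitin ligase, rose by 0.82 ± 0.09 and 0.99 ± 0.09 (adjusted p = 2.17e-06 and 2.02e-08).

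In the cell death arm, all 10 genes were tested: 5 were higher and 0 lower at day 1 (median 0.22), and 6 were higher and 3 lower at day 5 (median 0.44). Cflar, which encodes the caspase-8 inhibitor cFLIP, rose from 88.4 ± 6.19 to 140.0 ± 12.4 CPM at day 1 (0.66 ± 0.15, adjusted p = 0.00332) and from 83.2 ± 4.05 to 394.0 ± 119.9 CPM at day 5 (2.24 ± 0.15, adjusted p = 5.23e-10). Mlkl, the pore-forming effector of necroptosis, rose by 1.65 ± 0.29 on the log2 scale at day 1 (adjusted p = 0.000646) and by 2.84 ± 0.30 at day 5 (adjusted p = 3.94e-07). Zbp1, a nucleic acid sensor that can start necroptosis, rose by 2.17 ± 0.12 and 2.71 ± 0.12 (adjusted p = 1.19e-10 and 1.13e-12). The list thus holds both inhibitors and effectors of death among the genes that rose.

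The list for TNF release and control of its mRNA had 16 of 17 genes tested, with 5 higher and 3 lower at day 1 (median -0.16) and 5 higher and 7 lower at day 5 (median -0.25). Adam17, the protease that frees TNF from the membrane, rose from 146.3 ± 6.37 to 207.9 ± 12.8 CPM at day 1 (0.51 ± 0.10, adjusted p = 0.00107) and from 133.1 ± 4.77 to 272.4 ± 45.3 CPM at day 5 (1.03 ± 0.10, adjusted p = 4.19e-08). Rhbdf2, the carrier that brings ADAM17 to the surface, rose by 0.77 ± 0.10 at day 1 (adjusted p = 1.3e-05) and by 1.21 ± 0.10 at day 5 (adjusted p = 4.67e-09). Zfp36, or tristetraprolin, which binds and destabilises Tnf mRNA, fell from 127.3 ± 11.2 to 59.3 ± 5.54 CPM at day 5 (-1.10 ± 0.08, adjusted p = 1.31e-09), and at day 1 it did not pass (-0.15 ± 0.08, adjusted p = 0.195). Its uninfected level was 72.6 ± 1.61 CPM at day 1, below that of uninfected day 5 cells. Zfp36l2, a relative, fell by 0.65 ± 0.08 at day 1 (adjusted p = 1.19e-05) and by 1.10 ± 0.08 at day 5 (adjusted p = 1.51e-09). Zc3h12a, the mRNA-cutting nuclease Regnase-1, rose by 0.81 ± 0.16 at day 1 (adjusted p = 0.00115) and by 2.15 ± 0.16 at day 5 (adjusted p = 2.89e-09).

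Genes known as targets of RANK signalling in osteoclasts were read beside Tnfrsf11a and Tnfrsf11b. Of 11, 9 were tested, with 3 higher and 1 lower at day 1 (median 0.03) and 6 higher and 2 lower at day 5 (median 0.99). Acp5, the tartrate-resistant acid phosphatase, rose from 169.0 ± 10.7 to 1038 ± 311 CPM at day 5 (2.62 ± 0.15, adjusted p = 4.24e-11), and Ctsk, the collagen-degrading cathepsin K, from 1035 ± 89.6 to 2775 ± 598 CPM (1.42 ± 0.13, adjusted p = 2.08e-08). Dcstamp, a membrane protein needed for cell fusion, rose from 0.488 ± 0.198 to 10.8 ± 3.54 CPM (4.47 ± 0.27, adjusted p = 8.15e-11). Fos, a transcription factor that osteoclast formation needs, fell from 276.9 ± 23.5 to 33.6 ± 7.59 CPM (-3.04 ± 0.13, adjusted p = 1.16e-12). Part of the Fos distance lies in the controls, since uninfected cells were higher at day 5 than at day 1 (1.36 ± 0.13, adjusted p = 6.65e-07). The other tested gene called lower at day 5 was the osteoclast marker Oscar (-1.01 ± 0.20, adjusted p = 0.000308). Nfatc1 was not called (0.09 ± 0.10, adjusted p = 0.483), and Calcr and Ocstamp did not pass the filter. The summed level of 7 osteoclast markers was 3270 to 5120 CPM in exposed day 5 libraries and 1180 to 1360 CPM in uninfected ones. All 7 are genes of this list, and Ctsk and Acp5 make up most of the sum. The part of this sum in the other results was not tested. At day 1, the smaller calls of Dcstamp (0.91 ± 0.29, adjusted p = 0.0281), Ctsk (0.42 ± 0.13, adjusted p = 0.0206) and Fos (-0.38 ± 0.12, adjusted p = 0.0305) did not hold without some single day 1 libraries. Dcstamp lost its call without exposed replicate 1, 2 or 3 or uninfected replicate 2 or 4, Ctsk without exposed replicate 1, 2 or 3 or uninfected replicate 1 or 4, and Fos without exposed replicate 3 or 4 or any 1 of the 4 uninfected libraries.

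**Figure D4:**
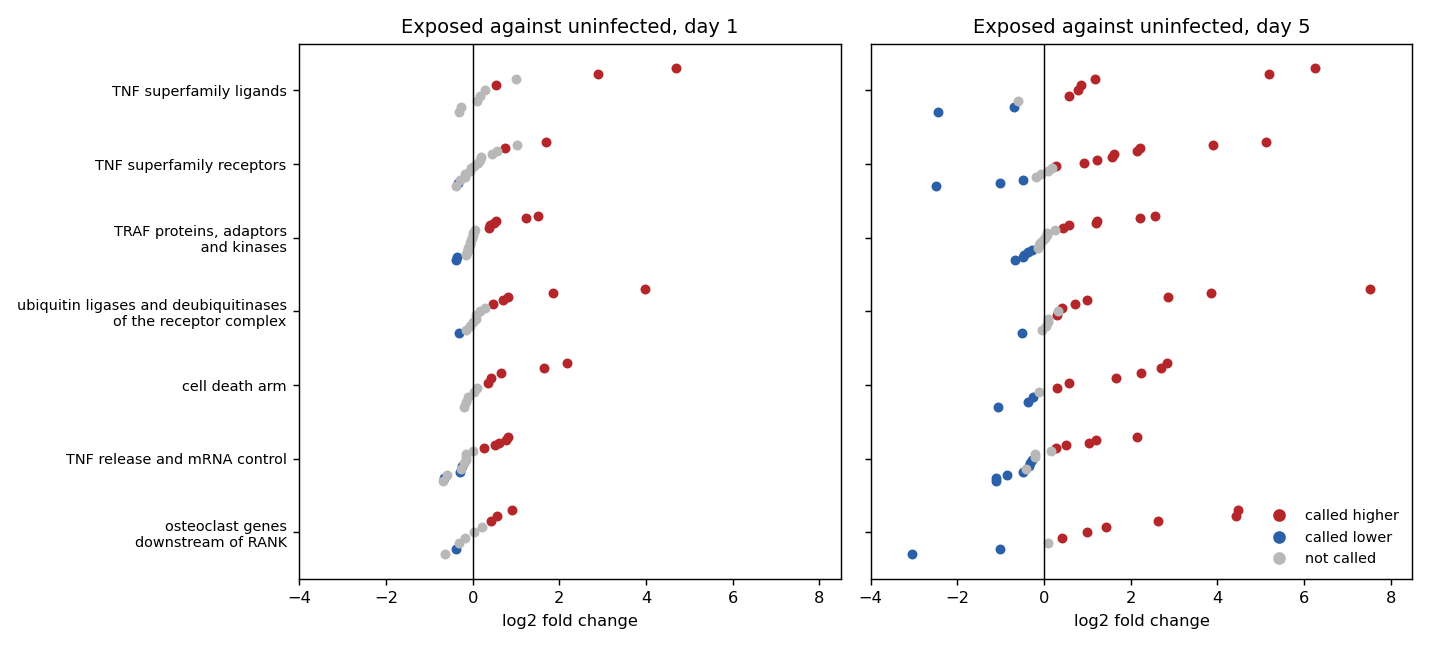
Log2 fold change of exposed over uninfected cells at day 1 (left) and day 5 (right) for the 91 tested list genes other than the 10, 1 point per gene, in 7 lists (Fadd is in 2 of them). Points called higher are red, called lower blue and not called grey, and at day 5 the values run from -3.04 to 7.53.

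Over all 7 lists, 91 of 109 genes other than the 10 were tested, and 29 were higher and 8 lower at day 1, 45 and 22 at day 5. The exposure effect became more positive between days for 31 and more negative for 15. Of all tested genes, 13.4% and 10.5% were called higher and lower at day 1, and 28.6% and 28.4% at day 5. For the change, 16.4% and 19.5% were called more positive and more negative. The counts of each list above are to be read beside these shares. The lists were drawn up with earlier results of these data known, and the counts are given as a description.

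Between uninfected cells of the 2 days, 1 of the 10 genes was called higher and 1 lower, a share near that of all genes. Birc3 was called higher at day 5 than at day 1 (0.35 ± 0.11) and Traf2 lower (-0.35 ± 0.09), where 10.8% and 8.91% of all tested genes were called higher and lower. On the compared libraries alone 4 of the 10 were called higher (Birc3, Tnfrsf1a at 0.15, Tnfrsf11a at 0.34 and Birc2 at 0.17), with 3386 of all genes. Birc3 lost its call without any 1 of 5 uninfected libraries (day 1 replicates 1, 2 and 4, day 5 replicates 2 and 4), with values from 0.32 to 0.37. Tnfrsf11b fell short of the threshold in the other direction (-2.97 ± 1.15 in the fit) on 3 counts against 26, a ratio of 0.109 with a 95% interval of 0.0211 to 0.355 for counting error only, and DESeq2 called it at -3.17. Tnf itself stood at 0.12 ± 0.29, Tnfrsf1a at 0.14 ± 0.09 and Tnfrsf1b at -0.09 ± 0.15, none of them called.

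Per kilobase of exon the order of levels among the 10 genes was set by the receptors in uninfected cells and by Tnf in exposed day 5 cells. In uninfected day 1 cells Tnfrsf1a led with 108 ± 3.33 CPM per kb (SD, n = 4, as for all values here), before Tnfrsf1b with 38.6 ± 1.01 and Tnf with 9.16 ± 0.621. Birc2 (4.25 ± 0.112), Traf2 (3.71 ± 0.0436) and Birc3 (3.60 ± 0.198) followed, the last 2 within their spread. Tnfrsf11a (0.404 ± 0.0397) and Tnfsf9 (0.292 ± 0.0928) overlapped in SD, as did Tnfrsf11b (0.0308 ± 0.0235) and Traf1 (0.00414 ± 0.00557) at the foot. The order in uninfected day 5 cells differed in Birc3 (4.60 ± 0.125), which came before Traf2 (2.92 ± 0.218) and within the spread of Birc2 (4.77 ± 0.244).

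In exposed day 1 cells Tnf reached 35.4 ± 8.08 CPM per kb, still below Tnfrsf1a (98.7 ± 4.41) and Tnfrsf1b (77.9 ± 3.05). At day 5 of exposure Tnf led with 420 ± 230 CPM per kb, but its wide spread between libraries reached that of Tnfrsf1b (208 ± 62.9). Within each exposed day 5 library Tnf was above Tnfrsf1b per kb. Both stood before Tnfrsf1a (80.2 ± 9.91) and Birc3 (18.6 ± 3.61). Birc2 (6.78 ± 0.638), Tnfrsf11b (6.76 ± 3.46), Traf2 (5.75 ± 0.687) and Traf1 (3.41 ± 2.45) did not separate from their neighbours in that order beyond 1 SD. Tnfrsf11a (0.470 ± 0.0469) and Tnfsf9 (0.410 ± 0.269) came last and overlapped. Osteoprotegerin and TRAF1 transcripts thus moved in group mean from the foot of the order to places beside Birc2 and Traf2. Traf1 stayed below Traf2 in each exposed day 5 library, at 0.201, 0.922, 0.297 and 0.839 of it in replicates 1 to 4.

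**Figure D5:**
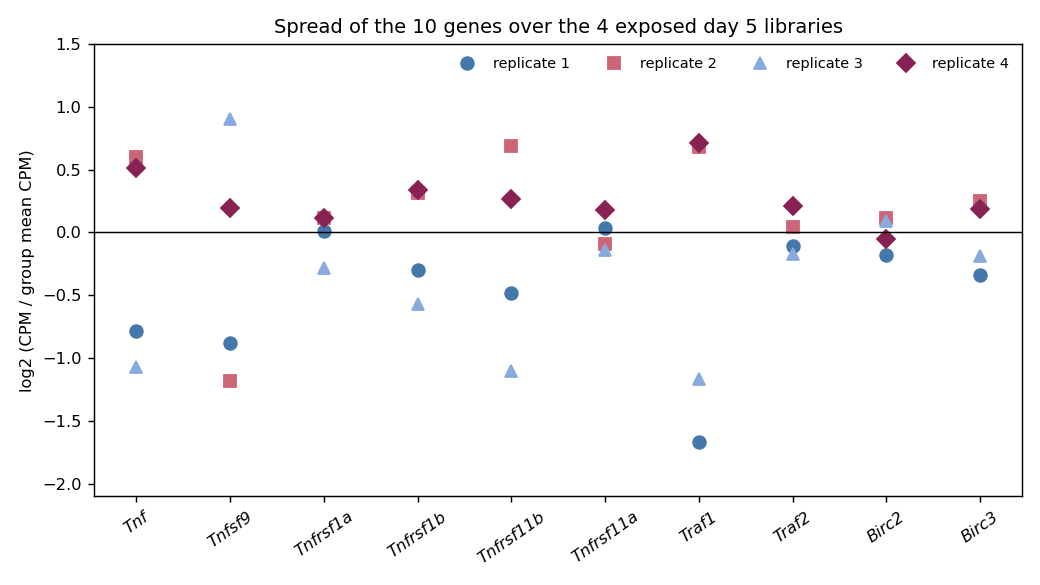
Level of each of the 10 genes in the 4 exposed day 5 libraries as log2 of CPM over the group mean, 1 symbol per replicate. Replicates 2 and 4 (red) lie above replicates 1 and 3 (blue) for Tnf, Tnfrsf1a, Tnfrsf1b, Tnfrsf11b, Traf1, Traf2 and Birc3, while Tnfsf9, Tnfrsf11a and Birc2 show another order. Replicates 2 and 3, of one code series, are highest for Birc2 and lowest for Tnfrsf11a. For Traf2 and Tnfrsf1a the order depends on the TMM scaling.

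The spread over the 4 exposed day 5 cultures was itself shared by several of the genes. Traf1 ranged from -1.67 to 0.71 in log2 of the group mean, Tnf from -1.07 to 0.60 and Tnfrsf11b from -1.11 to 0.69. Tnfrsf1b ranged from -0.57 to 0.34 and Birc3 from -0.34 to 0.25. In each of these 5 genes replicates 2 and 4 were the 2 highest libraries, with or without TMM scaling. Traf2 and Tnfrsf1a had the same order in CPM, but there it depended on that scaling. For both, replicate 2 was below replicate 1 as a share of total counts. Traf2 had 2075 of 81284210 counts in replicate 2 against 1981 of 73654989 in replicate 1. Tnfrsf1a had 15493 against 15241 counts of the same totals. Tnfrsf1a was lowest in replicate 3 (-0.28) and within 0.12 of the mean in the others. The TMM factors of replicates 2 and 4 were 0.845 and 0.935, and those of replicates 1 and 3 were 0.989 and 1.03, so the libraries that stood higher also had the smaller scaling factors. The part of this in the size of the spread was not tested.

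Over the 16 libraries, likeness was measured as the root mean square difference of log2 CPM after each gene was centred on its own mean. The 5 genes most like Tnf among 9525 genes with a symbol and a mean of 5 CPM or more were Clec4e (0.294), the C-type lectin Mincle that binds a mycobacterial glycolipid, Inhba (0.333), the activin A subunit, Hdc (0.359), which makes histamine, Cyp26b1 (0.389), which degrades retinoic acid, and the cytokine Il1a (0.43). Within the group of 10, Tnfrsf1b and Birc3 were nearest to each other (0.253), as were Traf2 and Birc2 (0.251) and Traf1 and Tnfrsf11b (0.97). No gene of the 10 was near Tnf, whose closest was Tnfrsf1b at 1.19. Tnfrsf1a and Tnfrsf11a formed the remaining pair (0.284), and Tnfsf9 was closest to Birc2 (0.503). All groups enter these distances, so they mostly reflect the size of the exposed day 5 values.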

How the data were processed

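RNA-seq of polyadenylated RNA was read from 16 deposited files, 1 per library, which hold raw counts per gene and, as their names say, counts of the reverse strand. Per the submitters' processing notes, the authors used STAR and GRCm39, with no version or annotation release given. Files hold 55359 genes. Symbols came from GENCODE M21 for 52083 of them by identifier without version, and the rest held 0.449% of counts. Exon lengths for CPM per kb came from the same release, and promoter windows from RefSeq on GRCm38.p6. The submitters state no rule for reads shared between related genes.

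Genes were filtered by edgeR's filterByExpr by group, scaled by TMM and fitted in 1 robust quasi-likelihood model with a mean per group (edgeR 4.0.16, R 4.3.3), without a replicate block. The common biological coefficient of variation was 0.149. Exposure was tested at each day, its change between days as an interaction, and uninfected days against each other. Tests were two-sided with Benjamini-Hochberg adjustment over 17190 genes, called under 0.05. They measure the spread between cultures of 1 line, which may be technical, with 1 dispersion per gene for all groups. Counting intervals are exact binomial at 95%.

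The 10 genes and all lists were chosen with earlier results of these data known. Genes named beyond the 10 follow a rule: from each list, those at 1 CPM or more with the smallest p, up to 3 for day 1 and for day 5, and the 5 genes most like Tnf. RANK ligand was named for its 0 counts, and 1 gene that the rule takes is not reported here. Tests were checked on simulated data with the same dispersion in all genes and groups. That check does not cover the wider spread of exposed day 5 libraries. The results were recomputed with RLE size factors, with DESeq2 1.42.0, with no filter or 1 CPM in 4 libraries, on the compared libraries alone, with a replicate block, with each library left out, and for exposed day 5 without 2 libraries of another code series. Replicates 1 and 2 or 3 and 4 alone were added after seeing the data. Figures used matplotlib 3.10.9.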

Additional observations from a re-analysis of the deposited data

Results flagged for a closer look

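Of 52 groups of 4 libraries screened for a single value far from the other 3, 4 stood out by Dixon's criterion, and chance alone marks about 1 in 20 groups. Tnfrsf1a was at 239 CPM in exposed day 1 replicate 4, against 261 to 262 CPM in the other 3 libraries. Tnfrsf1b was at 153 CPM in uninfected day 1 replicate 4, against 145 to 146 CPM. Traf1 was at 0.0762 CPM in uninfected day 5 replicate 1 with 6 counts, against 0 in the other 3, and its ratio to Traf2 per kilobase was 0.00284 in the same library, against 0.

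The exposure effect differed between the days, by the interaction test, for 33 of the 38 genes named from the 10 and the lists, where 16.4% and 19.5% of all genes were called more positive and more negative. The 10 were chosen on this outcome and the others for a small p at day 1 or day 5, so nothing is read from the count. For the 10 genes the change is a description: on the log2 scale it was 3.45 for Tnf, -0.44 for Tnfrsf1a, 1.51 for Tnfrsf1b, 9.17 for Tnfrsf11b, -0.51 for Tnfrsf11a, 7.80 for Traf1, 0.76 for Traf2 and 1.04 for Birc3.

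Among the other ligands and receptors the effect grew by 3.35 for Tnfsf15, 0.57 for Tnfsf13b and 0.52 for Fas, and changed by -2.15 for Tnfsf14, -0.67 for Relt, -2.11 for Tnfrsf18 and -0.45 for Tnfrsf8. Part of the change of Tnfsf14, Tnfrsf18 and Tnfrsf8 lies in the controls, which were higher at day 5 than at day 1 by 0.92, 1.69 and 0.33. The change of Fas lost its call without exposed day 1 replicate 2, or replicate 1 or 2 of either uninfected group, with values from 0.34 to 0.64 over all left-out libraries. That of Tnfrsf8 lost its call without replicate 3 of either day 1 group or uninfected day 5 replicate 2 (-0.50 to -0.39). Among adaptors, kinases and ubiquitin regulators it grew by 1.33 for Traf5, 0.71 for Ikbke, 0.73 for Traf3, 3.55 for Tnip3, 2.02 for Tnfaip3 and 2.14 for Tnip1. Controls of Traf3, Tnip3 and Tnip1 changed by -0.39, -0.78 and -0.43 from day 1 to day 5. Part of the growth for these genes lies there.

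In the cell death arm the change was 0.54 for Zbp1, 1.58 for Cflar and 1.19 for Mlkl, and the last lost its call without any 1 of 5 libraries (exposed day 1 replicate 3, exposed day 5 replicate 2 or 4, uninfected day 1 replicate 2, uninfected day 5 replicate 4), with values from 0.95 to 1.42. Among genes of TNF release and mRNA control it was -0.95 for Zfp36, -0.45 for Zfp36l2, 1.34 for Zc3h12a, 0.44 for Rhbdf2 and 0.53 for Adam17. Among osteoclast genes it was -2.66 for Fos, 2.07 for Acp5, 3.55 for Dcstamp and 1.00 for Ctsk. Part of the change of Zfp36 and Fos lies in the controls, which were higher at day 5 than at day 1 by 0.81 and 1.36.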

How the results depend on the processing

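At day 5, 7 of the 10 genes were called higher and 1 lower with every single library left out, and no other setting moved that count by over 1.5 times. Leaving out each library gave 4594 to 5061 of all genes higher and 4550 to 5062 lower. Nothing is read from the steadiness of the count for the 10, which were chosen with these results known. At day 1 the fit on the compared libraries alone called 8 of the 10 higher, 19 other list genes lower, and 3650 and 3371 of all genes higher and lower. The same fit for uninfected days called 4 of the 10 higher, 25 and 22 other list genes, and 3386 and 3038 of all genes. DESeq2 called 2 of the 10 lower between uninfected days. The change between days was called lower for 1 of the 10 in place of 2 with RLE size factors, with no filter, with the replicate number as a block and without the 2 libraries of another code series. Same-numbered libraries deviated together with correlations from -0.099 to 0.06, which gives no sign of shared deviations, and 1 of 12 comparisons had its own number as the closest. The exposed groups of the 2 days were not compared in this way.

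With replicates 1 and 2 alone, 2 of the 10 genes, 17 other list genes and 813 of all genes were called higher at day 1, and 3 other list genes and 406 of all genes lower. The change then had 1 of the 10 and 9 other list genes lower, and 1481 higher and 1675 lower over all genes. Uninfected days had 0 of the 10, 4 other list genes and 422 of all genes higher and 0, 0 and 187 lower. With replicates 3 and 4 alone, 2 of the 10, 12 other list genes and 568 of all genes were higher at day 1, and 1 other list gene and 156 of all genes lower. The change then had 0 of the 10 lower, 15 other list genes higher and 6 lower, and 811 and 1083 of all genes. Uninfected days had 0 of the 10, 6 other list genes and 386 of all genes higher and 0, 0 and 195 lower. These fits have fewer libraries.

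Leaving out each library gave 4 to 9 other list genes lower at day 1 and 1 to 2 of the 10 lower in the change. Between uninfected days it gave 0 to 1 of the 10 higher and 1 to 2 lower, 3 to 17 other list genes lower, and 1227 to 2436 and 881 to 2221 of all genes higher and lower. The sign turned in 6 cases, all of fold changes that were not called: Tnfsf9 at day 5 (-0.19) and in the change (-0.09), Tnfrsf1b (0.05) and Traf1 (1.08) between uninfected days with replicates 1 and 2 alone, and Tnfsf9 (0.07) and Traf1 (0.53) between uninfected days without uninfected day 1 replicate 4, where leaving out each library gave -0.29 to 0.07 and -4.25 to 0.53. Traf2 at day 1 was called with a filter of 1 CPM in 4 libraries (0.24) and on the compared libraries alone (0.23). No scaling moved the median of all genes by 0.1. Depth limits Tnfrsf11b and Traf1 in uninfected cells most, where a group holds 3 to 26 counts. The causes of these differences were not tested.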
